A study of Gallus gallus with 21 samples.

Results

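The 7 genes described here encode the subunits of respiratory complex I that the mitochondrial genome of the chicken carries: ND1, ND2, ND3, ND4L, ND4, ND5 and ND6. They were chosen by position. Of the 37 mitochondrial genes among the 24356 genes of the count table, 15 were at least 150 bases long, and read along the genome these 15 follow the fixed avian order 12S, 16S, ND1, ND2, COX1, COX2, ATP8, ATP6, COX3, ND3, ND4L, ND4, ND5, CYTB, ND6. The RefSeq gene list of the GRCg7b assembly gave the same symbol at the same place for 7 of 7 members, and the same length for 6 of 7; the table gives ND3 as 351 bases.

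Messenger RNA came from trunk neural tubes, the forerunner of the spinal cord, of 21 chick embryos. In 12 embryos (KO) the gene MOXD1 was targeted with CRISPR/Cas9 before trunk neural crest cells take on a lineage, and 9 embryos (CTRL) were labelled WT. Per the labels' protocols, constructs were injected into the neural tube at Hamburger-Hamilton stage 10+/11 and electroporated on one side, so a KO library can hold edited and unedited cells. CRISPR/Cas9-injected embryos then stood for 6 to 10 hours at room temperature. The sources used here do not give the construct used in CTRL embryos, nor whether they stood in the same way, and name no strain, sex, batch or age at collection.

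Complex I, or NADH:ubiquinone oxidoreductase, is the entry point of electrons from NADH into the respiratory chain. A peripheral arm built from nuclear-encoded subunits oxidises NADH, and a membrane arm, whose core is made of the 7 ND proteins, passes protons across the inner membrane. Vertebrate mitochondrial DNA is transcribed into long RNAs from both strands, which are then cut, largely at the transfer RNAs, into single messengers. ND6 is the one protein gene on the opposite strand from the rest, and in human cells its messenger has been found largely without a poly(A) tail, which bears on libraries made, as here, from poly(A) RNA.

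On GRCg6a, with the strand as the table gives it, ND1 lies on the plus strand of the mitochondrial genome at 4050 to 5024 and ND2 at 5241 to 6279. ND3 follows at 10776 to 11126, ND4L at 11196 to 11492, ND4 at 11486 to 12863 and ND5 at 13071 to 14888, all on the plus strand. ND6 lies on the minus strand at 16184 to 16705. In the table's gene IDs they are, in genome order, ENSGALG00000042750 (ND1), ENSGALG00000043768 (ND2), ENSGALG00000030436 (ND3), ENSGALG00000042478 (ND4L), ENSGALG00000036229 (ND4), ENSGALG00000029500 (ND5) and ENSGALG00000037838 (ND6). Each of the 7 is a single exon. ND4L and ND4 overlap by 7 bases on the same strand, and the other 5 members overlap no annotated gene. Because the counting did not use the option for reads that overlap several genes, fragments that touch both ND4L and ND4 can be missing from both counts, which weighs more on ND4L with its 297 bases than on ND4 with its 1378.

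Total counts ran from 16346238 to 20970382 in KO and from 16164404 to 21133788 in CTRL libraries. The 7 genes together took 3.42% ± 0.802 of all counts in KO (SD, n = 12) and 2.80% ± 0.515 in CTRL libraries (SD, n = 9). The whole mitochondrial genome took 6.72% to 14.3% in KO and 6.68% to 11.0% in CTRL libraries, with the highest KO shares in KO 4, 5 and 6 and the highest CTRL share in CTRL 4. In earlier results of these data CTRL 1 and KO 8 stood apart from the other libraries; values without both are given in the closing part. CTRL 3 stood apart in the make-up of its mitochondrial transcripts. Of the 15 genes, 12S took 5.01% and CYTB 4.61% there. In the other 8 CTRL libraries these shares were 0.580% to 2.54% and 6.43% to 10.1%. CTRL 6 lay nearest to CTRL 3 in both, at 2.54% and 6.43%, beside CTRL medians of 0.791% and 9.08%. The fewest counts of any member in a library were 5296, for ND3 in KO 10, which is 324 CPM of the library total with a 95% Wilson interval of 315 to 333. Counting error is therefore small beside the spread between libraries; as no molecular identifiers are named, such intervals cover counting error only. Gene IDs of nuclear genes were used without symbols, so MOXD1 itself, the nuclear complex I subunits and markers of the neural tube or of other cell types were not analysed here. In whole tissue, a different number of cells rich in mitochondria and a different amount of mitochondrial RNA per cell cannot be told apart.

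Levels are given as CPM per kilobase of exon, with library sizes scaled by the TMM method, so that genes of unequal length can be compared. ND1 was the most abundant member and ND6 the least. ND1 averaged 9724 ± 2621 over all 21 libraries (SD), which put it at place 3 among the 13809 genes tested, below COX1 and COX2, and ND6 averaged 943 ± 285, at place 49. Between them stood ND4 at 5558 ± 1584, ND5 at 4555 ± 1096, ND2 at 4192 ± 1093, ND4L at 2925 ± 681 and ND3 at 1489 ± 477. The order by level was not the order along the genome: ND2, next after ND1 among the members, had less than ND4 further along.

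The order was kept within single libraries for most neighbours. ND1 lay above ND4, ND4 above ND5, ND2 above ND4L and ND3 above ND6 in 21 of 21 libraries each. ND4L lay above ND3 in 20 of 21, the exception being CTRL 3, with 1352 for ND4L and 1635 for ND3. ND5 and ND2 did not differ beyond their spread: ND5 lay above ND2 in 9 of 12 KO and 6 of 9 CTRL libraries, with ratios from 0.907 to 1.47. The place of some genes depends on how length is counted. With 200 bases taken off each length, as an allowance for fragment size, ND4L moved from place 5 to place 2 at 8955. It then lay behind ND1 at 12233 and ahead of ND4 at 6501. ND5, the longest gene, moved from place 3 to place 5 at 5118, just below ND2 at 5192.

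**Figure D1:**
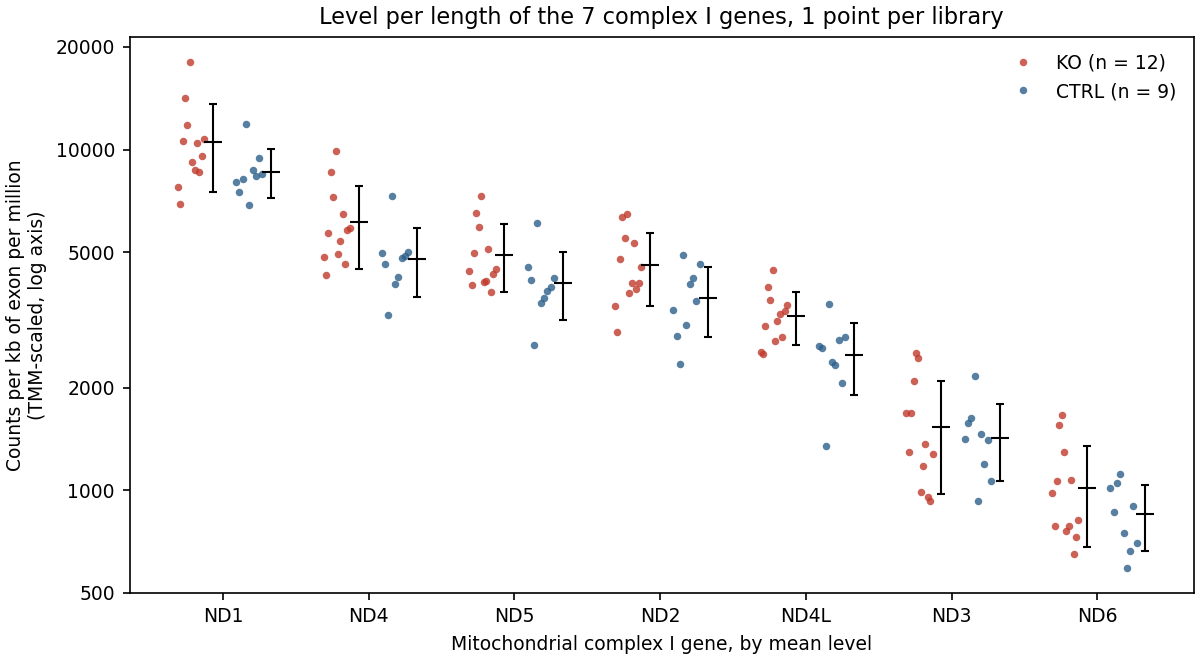
Level per length of each complex I gene (CPM per kilobase of exon, log axis), genes ordered by their mean, with 12 KO libraries left of 9 CTRL libraries. Points are libraries and bars the mean ± SD; ND1 averaged 9724 and ND6 943 over all libraries, and the KO and CTRL points overlap for each gene.

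The comparison of KO with CTRL asks whether targeting MOXD1 went with a change in these transcripts. All 7 members had positive log2 changes, from 0.10 for ND3 to 0.38 for ND4L, and so did 46.8% of the 13809 genes tested. However, 0 of 7 passed edgeR's quasi-likelihood test after Benjamini-Hochberg adjustment over 13809 genes, where 0% of all genes were called. At an unadjusted p under 0.05, 3 of 7 members (ND4L, ND4 and ND2) were higher in KO and 0 were lower. Of all genes tested, 2.58% were higher and 4.5% lower in KO at that level. The median log2 change of the members was 0.29, beside -0.016 for all genes tested. Members vary together across libraries, as described further on, so these are not separate observations. DESeq2 also called 0 members and 0 genes, and had 5 members higher at an unadjusted p under 0.05 (2.72% of all genes were higher by that tool). The count of 3 in edgeR changed when single libraries were left out. It was 1 without KO 4, KO 6, CTRL 3 or CTRL 5, and 5 without KO 10 or CTRL 4. The share of all genes at that level was not computed for these fits, so whether it moved likewise is not known.

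Among the subunits that resemble sodium-proton antiporters and form the proton-pumping part of the membrane arm, ND2 ran from 2914 to 6459 in KO libraries with a median of 4285, against 2347 to 4905 with a median of 3599 in CTRL libraries. KO 4, 5, 6 and 9 lay above the highest CTRL library, and the other 8 KO libraries lay within the CTRL range. By edgeR the difference was 0.33 on the log2 scale (SE 0.15), with p = 0.0458 before and adjusted p = 0.705 after adjustment, a fold of 1.25 with a 95% interval of 1.00 to 1.56. ND4, the second of these, ran from 4284 to 9885 in KO with a median of 5753, against 3266 to 7290 with a median of 4813 in CTRL. KO 4 and KO 6 stood above the CTRL range, whose top was set by CTRL 4; the next CTRL library had 5001. edgeR put its difference at 0.36 on the log2 scale (SE 0.16), with p = 0.0317 before and adjusted p = 0.705 after adjustment. ND5, the longest of the 7 genes, whose product sits at the far end of the membrane arm, ran from 3824 to 7308 in KO with a median of 4428, against 2662 to 6086 with a median of 3961 in CTRL. Again KO 4 and KO 6 lay above the CTRL range and the other 10 within it. By edgeR the difference was 0.27 on the log2 scale (SE 0.14), with p = 0.0677 before and adjusted p = 0.707 after adjustment.

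ND1 and ND3 lie where the membrane arm meets the peripheral arm, near the site that binds ubiquinone. ND1 ran from 6934 to 18069 in KO libraries with a median of 10032, against 6892 to 11921 with a median of 8367 in CTRL libraries. The 18069 of KO 6 and the 14135 of KO 4 were above the CTRL range, and 10 of 12 KO libraries lay within it. edgeR gave ND1 a difference of 0.29 on the log2 scale (SE 0.15), with p = 0.0632 before and adjusted p = 0.707 after adjustment. ND3, whose loop at this junction is known from mammals to move with the active and resting states of the enzyme, ran from 928 to 2523 in KO with a median of 1329.9, against 933 to 2166 with a median of 1417 in CTRL. It was the member with the least shift: 5 of 12 KO libraries lay above the CTRL median, 2 lay above the CTRL range and KO 11 lay just below it. By edgeR the difference was 0.10 on the log2 scale (SE 0.19), with p = 0.590 before and adjusted p = 0.941 after adjustment, with a 95% interval from -0.29 to 0.50, so changes in either direction of up to about that size were not distinguished. Single libraries moved it: the log2 change of ND3 was 0.034 without KO 5, 0.039 without KO 6, 0.043 without CTRL 5 and 0.22 without CTRL 4.

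ND4L and ND6 are small hydrophobic subunits that sit between the junction and the antiporter-like part. ND4L ran from 2512 to 4434 in KO libraries with a median of 3209, against 1352 to 3525 with a median of 2619 in CTRL libraries. KO 4, 5 and 6 lay above the highest CTRL library, and the lowest value of all was that of CTRL 3. The edgeR difference of 0.38 on the log2 scale (SE 0.14) had the smallest p of the 7, 0.0110 before adjustment and adjusted p = 0.704, which was rank 206 among all genes. Expressed as a fold it was 1.30 with a 95% interval of 1.07 to 1.58. ND6, read from the other strand, ran from 648 to 1665 in KO with a median of 900.3, against 593 to 1118 with a median of 866 in CTRL. Of the KO libraries, 6 of 12 lay above the CTRL median, and KO 4, 5 and 6 above the CTRL range. edgeR put its difference at 0.25 on the log2 scale (SE 0.17), with p = 0.154 before and adjusted p = 0.769 after adjustment.

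Of the other 8 mitochondrial genes of 150 bases or more, 0 passed the test and 0 had an unadjusted p under 0.05. Their median log2 change was 0.077, with 6 positive and 2 negative. CYTB, the mitochondrial subunit of complex III and the neighbour of ND5, had 0.33 (SE 0.19, edgeR adjusted p = 0.728). The 2 negative values were those of the ribosomal RNAs, -0.60 (SE 0.33) for 12S and -0.22 (SE 0.27) for 16S, with edgeR adjusted p of 0.721 and 0.896. Whether the members differ from these 8 was not tested.

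**Figure D2:**
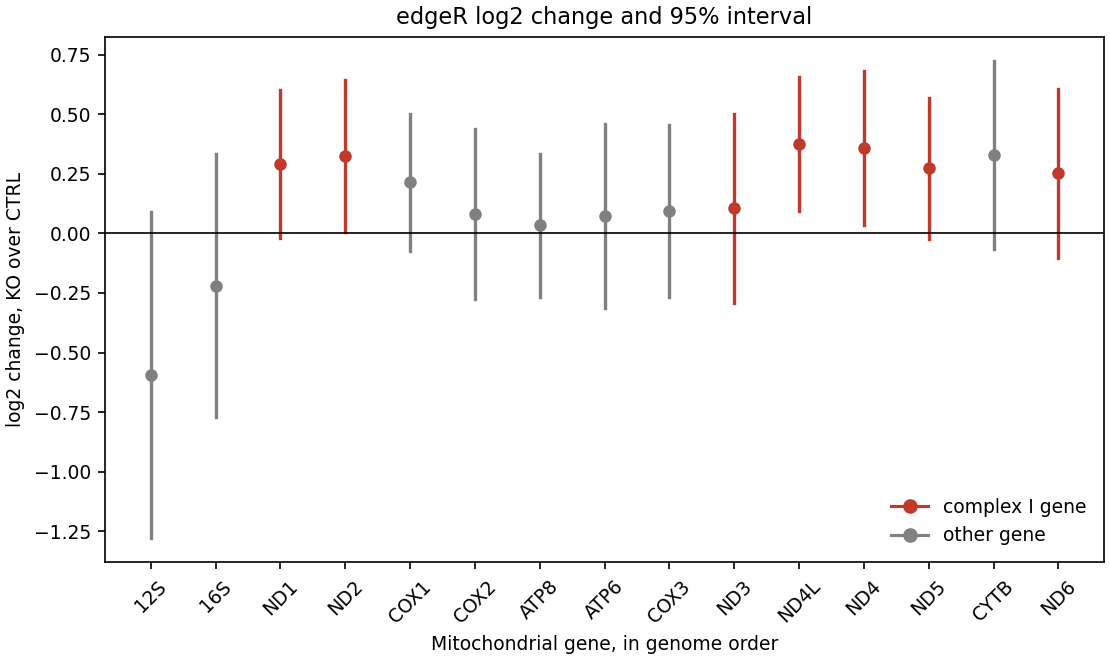
edgeR log2 change of KO over CTRL for the 15 mitochondrial genes in genome order, with points for estimates and lines for 95% intervals; complex I genes are red and the others grey. The 7 complex I genes lie between 0.10 and 0.38, and the adjusted p of each of the 15 genes was at least 0.704.

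A small number of libraries carried the high values. KO 6, KO 4, KO 5 and CTRL 4, in this order, had the highest means of the 7 genes after each gene was put on a common scale, and CTRL 3, CTRL 5 and KO 2 had the lowest. The highest library exceeded the lowest by 2.62 times for ND1 and by 3.28 times for ND4L, with the other 5 genes between these values. The coefficient of variation was 17.7% (ND4L) to 36.5% (ND3) in KO and 16.6% (ND1) to 25.3% (ND3) in CTRL libraries. Over all genes tested its median was 26.6% in KO and 27.1% in CTRL. Among the 2095 genes of at least 100 CPM, to which the members belong, the medians were 18.6% and 19.2% in the same order, so abundant as they are, the members were not among the steadier genes. The exceptions were ND4L in KO libraries and ND1 in CTRL libraries, which lay below these medians.

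**Figure D3:**
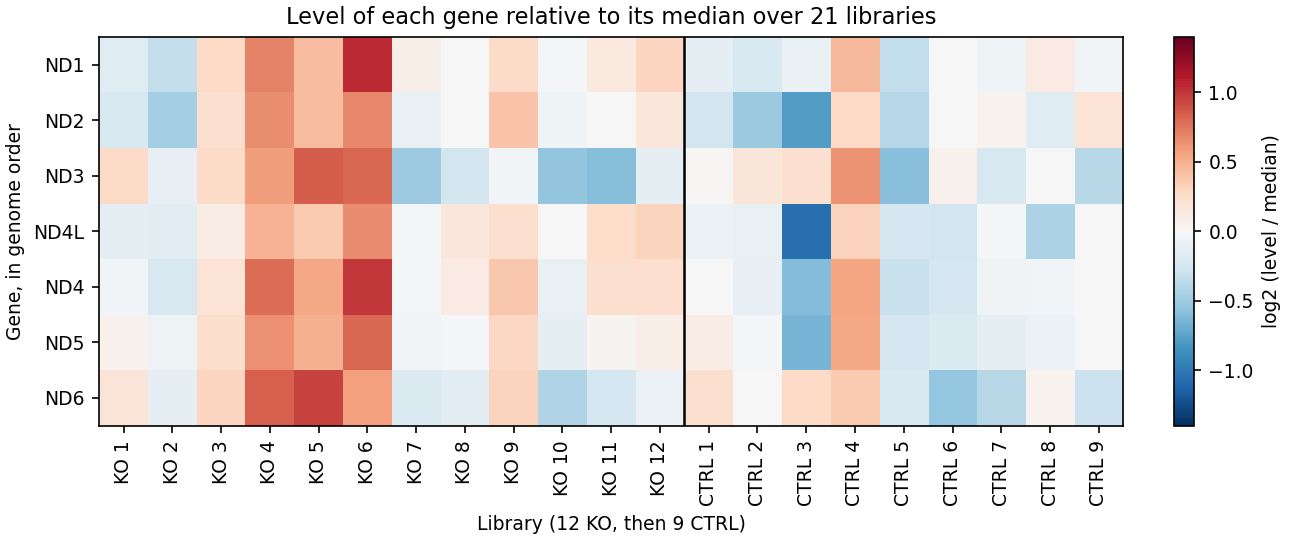
Level of each complex I gene in each library as log2 of its ratio to the gene's median over 21 libraries, genes in genome order and 12 KO libraries left of 9 CTRL libraries. KO 3, KO 4, KO 5, KO 6 and CTRL 4 are above the median for each of the 7 genes, and CTRL 3 is low for ND2, ND4L, ND4 and ND5 while ND3 and ND6 are not.

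The members did not all vary together to the same degree. Over the 21 libraries, log2 CPM of ND4 and ND5 had Pearson's r = 0.968 and Spearman's rho = 0.916 (permutation p = 1e-05 for each, the smallest that 100000 resamples can give; adjusted p = 2.1e-05 for r and 3.5e-05 for rho over 21 pairs). Without the 2 libraries farthest from the median of ND4, KO 4 and KO 6, r was 0.945. ND4L went with its neighbour ND4 in the same way, with r = 0.901, rho = 0.925 and r = 0.883 without KO 6 and CTRL 3 (permutation p = 1e-05 for r and for rho). For ND3, r with the other members ran from 0.306 to 0.841. ND3 and ND4L are separated by 1 transfer RNA gene. CTRL 3 had the lowest ND4L of all, 1352, beside 1635 for ND3, and r of this pair without CTRL 3 was not computed. With CTRL 3 included, for ND3 and ND4L r was 0.306 and rho 0.257 (permutation p = 0.178 and 0.260, adjusted p = 0.178 and 0.260), and r was 0.049 without KO 5 and KO 6. Its r was 0.649 with ND5, 0.644 with ND1, 0.588 with ND4 and 0.437 with ND2 (permutation p = 0.00124, 0.00151, 0.00484 and 0.0475; adjusted p = 0.0020, 0.0021, 0.0060 and 0.053), and rho was 0.577, 0.412, 0.378 and 0.336 in the same order (permutation p = 0.00720, 0.0630, 0.0917 and 0.134; adjusted p = 0.011, 0.075, 0.101 and 0.141). Without KO 4 and KO 6 the r with ND1 was 0.457, without KO 6 and CTRL 3 that with ND2 was 0.460, and without KO 5 and KO 6 those with ND5 and ND4 were 0.475 and 0.380. The highest r of ND3 was with ND6 of the opposite strand, with r = 0.841 and rho = 0.808 (permutation p = 1e-05 and 6e-05, adjusted p = 2.1e-05 and 1.4e-04), and with r = 0.766 without KO 5 and KO 6. ND6 had r = 0.375 with ND4L, 0.469 with ND2, 0.655 with ND1, 0.656 with ND4 and 0.687 with ND5. Permutation p were 0.0937, 0.0310, 0.00157, 0.00136 and 6.4e-04 (adjusted p = 0.098, 0.036, 0.0021, 0.0020 and 0.0012). In the same order rho was 0.451, 0.410, 0.529, 0.608 and 0.743 (permutation p = 0.0407, 0.0643, 0.0147, 0.00392 and 1.8e-04, adjusted p = 0.053, 0.075, 0.021, 0.0063 and 3.8e-04). Without the 2 libraries farthest from the median of the other gene, these r were 0.571, 0.553, 0.507, 0.494 and 0.897. All values of a library share its scaling and its total of mitochondrial RNA, so these coefficients describe the libraries and are not evidence of a link between single genes.

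**Figure D4:**
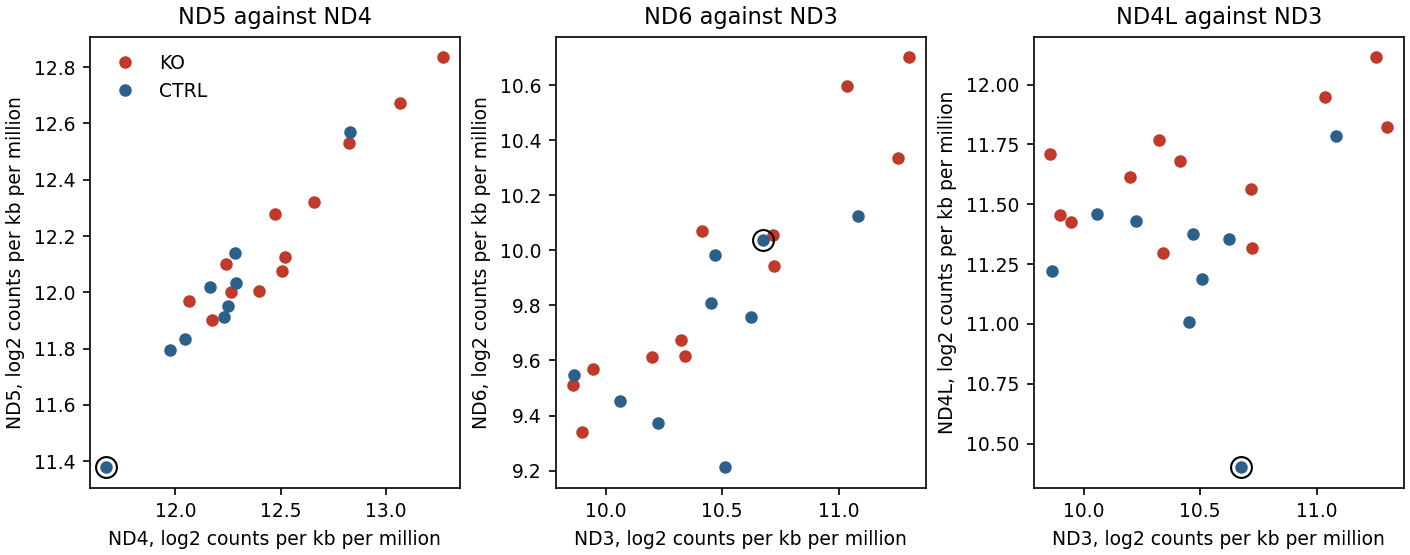
Log2 level of ND5 against ND4, of ND6 against ND3 and of ND4L against ND3, 1 point per library, KO in red and CTRL in blue, with CTRL 3 ringed. ND4 and ND5 lie close to a line (r = 0.968), ND3 and ND6 less closely (r = 0.841), and ND3 and ND4L are spread (r = 0.306).

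Ratios between members do not depend on how libraries are scaled. ND4L stood at 0.540 ± 0.0527 of the level of ND4 in KO (SD, n = 12) and 0.523 ± 0.0666 in CTRL libraries (SD, n = 9; exact permutation p = 0.511, adjusted p = 0.639). Both genes are known to be carried on one messenger in mammals. How many fragments the overlap kept out of either count was not tested. The ratio of ND2 to ND1 was 0.439 ± 0.0367 in KO and 0.425 ± 0.0749 in CTRL (exact permutation p = 0.595, adjusted p = 0.685). For ND5 over ND4 it was 0.812 ± 0.0654 in KO and 0.851 ± 0.0396 in CTRL (exact permutation p = 0.129, adjusted p = 0.269), and ND5 lay below ND4 in each of the 21 libraries. ND3 over ND4 was 0.250 ± 0.0607 in KO and 0.306 ± 0.0859 in CTRL (exact permutation p = 0.0922, adjusted p = 0.269), from 0.159 in KO 11 to 0.501 in CTRL 3. Its coefficient of variation was 24.3% in KO, the highest of the ratios in that group, and 28.1% in CTRL. In CTRL the highest was that of ND6 over ND5, 32.8%.

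ND6 over ND5 sets genes of opposite strands side by side. In libraries of poly(A) RNA this ratio can also depend on how much ND6 RNA carries a tail, which was not tested. The ratio was 0.203 ± 0.0328 in KO libraries (SD, n = 12) and 0.217 ± 0.0711 in CTRL libraries (SD, n = 9, exact permutation p = 0.648, adjusted p = 0.685). In 8 of 9 CTRL libraries it lay between 0.162 and 0.226, and CTRL 3 stood at 0.395. The highest KO value was 0.281, in KO 5, and the lowest 0.169, in KO 11. In CTRL 3 the level of ND6 was 1051, second highest of the CTRL libraries, while ND5 was the lowest of all at 2662. None of the 5 ratios passed the exact permutation test after adjustment over 20 measures, which were the 5 ratios and the shares of the 15 genes, and 0 of the 5 had an unadjusted p under 0.05.

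**Figure D5:**
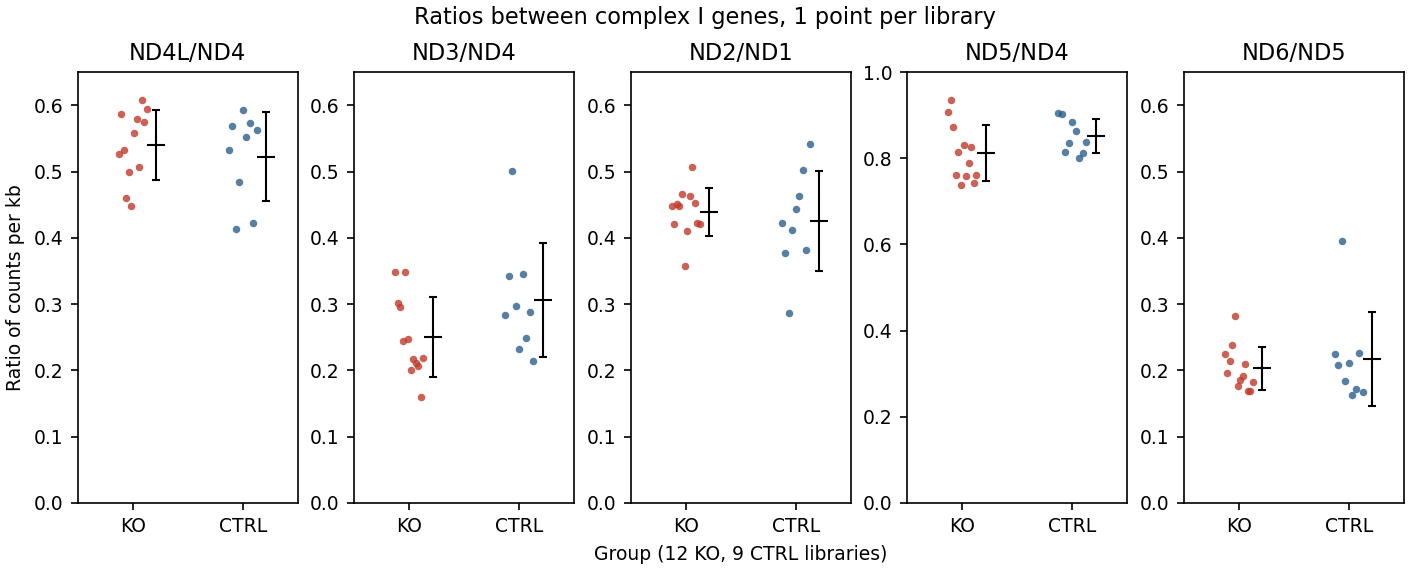
Ratios of counts per kilobase between pairs of complex I genes, 12 KO libraries left of 9 CTRL libraries in each panel, with points for libraries and bars for mean ± SD; each axis starts at 0 and the ND5/ND4 panel has a taller range. The groups overlap in each panel, and CTRL 3 is the high CTRL point for ND3/ND4 (0.501) and ND6/ND5 (0.395).

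Within the summed count of the 15 genes, ND1 took the largest part of the members, 11.2% ± 1.10 in KO (SD, n = 12) and 10.7% ± 1.36 in CTRL libraries (SD, n = 9). ND5 took 9.84% ± 0.301 in KO and 9.33% ± 1.16 in CTRL, and its share was steady among KO libraries, from 9.10% to 10.2%. In CTRL it ran from 6.80% in CTRL 3 to 11.2% in CTRL 9, and the other 7 lay between 8.96% and 9.79%. ND4 took 9.24% ± 0.709 in KO and 8.32% ± 1.08 in CTRL (exact permutation p = 0.0283, adjusted p = 0.269). It exceeded the CTRL median in 10 of 12 KO libraries. ND4L took 1.08% ± 0.138 in KO and 0.944% ± 0.198 in CTRL (exact permutation p = 0.0881, adjusted p = 0.269), and exceeded the CTRL median in 11 of 12. The shares of ND2, ND3 and ND6 had adjusted p of 0.517, 0.438 and 0.766 by the same test. Of the 20 measures, 0 passed after adjustment and 2 had an unadjusted p under 0.05, the shares of ND4 and of ATP8, a subunit of ATP synthase. Without CTRL 9, 3 shares passed, those of ND4, ND5 and COX2, each at an adjusted p of 0.0483, so that 1 library decided these calls. Without CTRL 3 the KO minus CTRL differences were the smallest of 24 alternatives for ND4 and ND5. They were 0.66 and 0.19 percentage points, beside 0.91 and 0.51 with all libraries. Over these alternatives the unadjusted exact permutation p reached 0.083 for ND4 and 0.42 for ND5. A share can move only against the others, and no level is read from it.

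By likeness of pattern, the genes nearest to the mean of the 7 members on a common scale were ND4, ND5 and ND4L. Their Spearman's rho over 21 libraries was 0.977, 0.943 and 0.886. The other members had 0.857 (ND2), 0.845 (ND1), 0.674 (ND6) and 0.495 (ND3). Each of the 7 is part of that mean. CYTB and COX1, a core subunit of complex IV, had 0.835 and 0.805, above ND6 and ND3. COX2, COX3 and ATP6, with 0.642, 0.536 and 0.526, also lay above ND3, and ATP8 with 0.439 lay below it. The ribosomal RNAs had 0.174 (12S) and -0.090 (16S). Among 9317 nuclear genes of at least 10 CPM, the highest rho were 0.873 for ENSGALG00000026229 (GRCg6a chromosome 4, 35038892 to 35040286, minus strand) and 0.836 for ENSGALG00000055069 (chromosome 5, 619429 to 623810, plus strand). ENSGALG00000026229 stood at 34.8 CPM ± 4.72 in KO (SD, n = 12) and 29.2 CPM ± 2.49 in CTRL libraries (SD, n = 9; edgeR adjusted p = 0.704). The lowest rho were -0.840 for ENSGALG00000014537 and -0.835 for ENSGALG00000052873, which lie on chromosome 5, plus strand, from 29608119 to 29626791 and from 25266455 to 25360816. These are the extremes of many genes, and nothing on shared function is read from them.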

How the data were processed

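Members and lists were chosen with earlier results of these data known. The authors deposited raw counts of fragments per gene with exon lengths. Per the file headers, they used featureCounts 2.0.1 over exons by gene, with read pairs on the reverse strand and no option for multi-mapping or multi-overlapping reads, on the Ensembl GRCg6a annotation, release 101. bcl2fastq, FastQC, STAR, MultiQC and DESeq2 are named in the submitters' processing notes without versions. Per the labels' protocols, a stranded mRNA kit was used on 50 ng of RNA, with 14 PCR cycles. Other columns of values per library numbered 0.

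Groups and replicate numbers follow the sample titles. Counts were tested with edgeR 4.0.16 (R 4.3.3; filterByExpr, TMM, quasi-likelihood F test, group as the only term, 2-sided, Benjamini-Hochberg, threshold 0.05), checked on simulated counts. SEs come from the coefficient and its F value. DESeq2 1.42.0 was an alternative. Single values were compared by exact permutation over 293930 splits. The series text counts the samples as embryos; no batch is stated. The 102 pairs of libraries within a group were compared by chi-square; the lowest was 29.2 per degree of freedom, so none agreed within sampling noise. All members are named; nuclear genes are named by extreme rho. The planned lists of nuclear genes were not run, because 0 of 24356 IDs matched the RefSeq list.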

Additional observations from a re-analysis of the deposited data

Results flagged for a closer look

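In the 9 CTRL libraries 19 measures were looked at (levels per length and shares of the 7 members, and 5 ratios), and 5 of them had 1 library far from the other 8. Chance gives about 1 in 20 such values, but these share libraries and genes. The KO group, with 12 libraries, was not examined this way.

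CTRL 4 was far above the other CTRL libraries in the level of ND4, at 7290 CPM per kilobase of exon, where the next had 5001. It was also the highest CTRL library for each of the other members, though these were not flagged. For ND1 it had 11921, where the next had 9444. CTRL 3 was far below the other CTRL libraries in the share of ND5 among the 15 genes, at 6.80%, where the next had 8.96%. It was far above them in the share of ND6, at 0.771%, where the next had 0.592%. The same library was far above the others in the ratio of ND3 to ND4, at 0.501 against 0.213 to 0.345, and in the ratio of ND6 to ND5, at 0.395 against 0.162 to 0.226. Ribosomal RNAs took 9.95% of the 15 genes in CTRL 3 and 1.72% to 5.93% in the other 20 libraries; their part in these values was not tested.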

How the results depend on the processing

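The 7 log2 changes kept their sign, and 0 members passed, in each of 31 alternatives (other scaling, no filter, DESeq2, a W chromosome covariate, both libraries that stood apart left out, each library left out, replicate blocks). The median log2 change of the members ran from 0.23 without KO 6 to 0.39 without CTRL 4, and was 0.33 without CTRL 1 and KO 8, which stood apart in earlier results. With single libraries left out, the lowest and highest log2 changes were 0.21 and 0.38 for ND1, 0.28 and 0.41 for ND2, 0.32 and 0.47 for ND4L, 0.29 and 0.48 for ND4, 0.22 and 0.39 for ND5, and 0.18 and 0.33 for ND6. No pairing of embryos is stated. Deviations of same-numbered libraries had correlations from -0.43 to 0.43 by title number (6 of 9 pairs above 0.1). By description number they ran from -0.21 to 0.43 (6 of 8 above 0.1). In the same order, 5 of 18 and 5 of 16 libraries were most like the one of their own number. Some pairs are the same by both numberings, so these counts are not independent, and the number expected by chance was not worked out. The fits with a replicate block used only libraries whose number occurs in both groups. By title number these were 18 libraries, without KO 10, KO 11 and KO 12. The median was then 0.36 and 0 members passed (4 at an unadjusted p under 0.05). By description number there were 16 libraries, without KO 6, KO 8, KO 11, KO 12 and CTRL 4. The median was then 0.34, with 1 member at that level. What the block did apart from the libraries left out was not tested. The share of all genes at that level was not computed for these blocks, so these counts have no background to be read against. Leaving out 1 library at a time gave 0 to 3 shares past the threshold, and 0 ratios.

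Differences within their spread changed sign: the share of ND6 (from -0.0054 percentage points without KO 5 to 0.038 without CTRL 3, and -0.0017 without CTRL 6), ND4L/ND4 (-3.4e-04 with the replicate block by title number), ND2/ND1 (from -0.0037 without CTRL 3 to 0.028 without CTRL 9) and ND6/ND5 (from -0.021 without KO 5 to 0.0088 without CTRL 3). That block left out KO 10, KO 11 and KO 12, whose ND4L/ND4 ratios were 0.608, 0.576 and 0.595. A mean of paired differences equals the difference of means over the same libraries, so pairing itself did not move this value. With 200 bases off each length, 4 of 7 members kept their place in the order. The cause of these shifts was not tested beyond the settings named.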
